A study of Mus musculus with 9 samples.

Results

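The genes described here are 36 known markers of macrophages and lymphocytes, taken by symbol from a table of 37668 mouse genes, and all 36 were found. They comprise 19 myeloid members and 17 lymphoid members. They were listed as known immune cell genes, but the members and their lists were chosen with earlier results of these data known. The study asked what loss of the angiotensin II type 1a receptor (gene Agtr1a) from one cell type of the vessel wall does to the aortic transcriptome. RNA was sequenced from whole aorta of 9 male mice aged 90 days on a 129T2SvEmsJ:C57Blk/6J background, in 3 groups of 3. All 3 groups carried the floxed AT1ar allele. The floxed group had no Cre transgene. The Cdh5Cre group carried CDH5 cre, which is active in endothelial cells, and the Sm22Cre group carried SM22 cre, which is active in smooth muscle cells. The design text calls the floxed group wild type. Cre lines from the Cdh5 promoter can also recombine in blood cells, which arise from embryonic endothelium, and SM22 cre lines can recombine in heart muscle; the labels do not describe the lines further. The series title names Marfan syndrome, and the labels of these mice name no Marfan allele. The deposited values are FPKM, fragments per length of transcript scaled to the number of mapped fragments, with 1 value for each group. Values of single mice were therefore not analysed here, and no SD, interval or test could be given. Every difference below is between 1 group value and another, with no replicate check.

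Macrophages live in the healthy aorta, chiefly in the outer layer (adventitia), where they clear debris and sample antigen. Resident macrophages are known for complement C1q and for scavenger receptors such as Cd163 and Mrc1. T and B lymphocytes are scarcer in a healthy wall. They are recognised by the signalling chains of their antigen receptors, CD3 in T cells and CD79 in B cells. Blood left in a dissected vessel carries lymphocytes, monocytes and neutrophils too. In bulk tissue, fewer cells of a type and less RNA per cell cannot be told apart.

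A near-identical gene pair sits among the myeloid members, and its sequences are shown because they bear on how far the values of both genes can be separated. Lyz2 (ENSMUSG00000069516) encodes the lysozyme of macrophages and lies on chromosome 10 from 116714390 to 116719377 in mm9. Lyz1 (ENSMUSG00000069515) encodes the lysozyme of Paneth cells in the gut and lies next to it, from 116724852 to 116729924. The first 150 of their 447 coding bases follow, from the GENCODE M21 transcripts, with the bases at which the copies differ in capitals.
Lyz2: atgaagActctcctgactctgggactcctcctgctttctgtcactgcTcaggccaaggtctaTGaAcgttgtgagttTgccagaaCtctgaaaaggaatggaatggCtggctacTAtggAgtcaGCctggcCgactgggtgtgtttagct
Lyz1: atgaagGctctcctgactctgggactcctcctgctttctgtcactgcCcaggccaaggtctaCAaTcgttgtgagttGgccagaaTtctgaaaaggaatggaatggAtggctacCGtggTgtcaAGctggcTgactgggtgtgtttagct
The coding sequences differ at 22 bases and are 95.1% identical, and the longest identical run is 118 bases. Over the whole transcripts, 74 of the 1242 windows of 75 bases (the read length) in Lyz2 also occur in Lyz1. These windows are 6.22% of those in Lyz1. A read from such a window cannot by itself be assigned to either gene, though its paired read may lie outside the shared stretch. How such reads were counted is not given, so the low Lyz1 values stand as uncertain. For Fcgr3, 7.38% of such windows occur in Fcgr2b, and for Ptprcap 35.5% occur in Coro1b. For Itgam, 71.7% occur in Gm49368, an overlapping gene model of the same annotation. For the other members the shared part was under 5%.

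Upstream sequences of 4 members are shown because both lineages are known targets of ETS factors such as PU.1, which binds around a GAGGAA core in myeloid and B cells. C1qb and Mrc1 stand for myeloid members on opposite sides of the floxed value, and Cd3d and Lck stand for T cell members. Each stretch has 200 bases, is written 5′ to 3′ on the strand of its gene, and comes from RefSeq promoters of build GRCm38.p6 (not the mm9 build of the values). GAGGAA, or TTCCTC where it lies on the other strand, is in capitals. The stretches are chr4:136886201-136886400 (minus strand) for C1qb, chr2:14229192-14229391 (plus strand) for Mrc1, chr9:44981586-44981785 (plus strand) for Cd3d and chr4:129573642-129573841 (minus strand) for Lck.
C1qb: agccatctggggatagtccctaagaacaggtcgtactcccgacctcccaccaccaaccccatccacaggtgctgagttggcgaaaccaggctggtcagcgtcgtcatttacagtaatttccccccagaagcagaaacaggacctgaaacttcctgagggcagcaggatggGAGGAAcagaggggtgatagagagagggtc
Mrc1: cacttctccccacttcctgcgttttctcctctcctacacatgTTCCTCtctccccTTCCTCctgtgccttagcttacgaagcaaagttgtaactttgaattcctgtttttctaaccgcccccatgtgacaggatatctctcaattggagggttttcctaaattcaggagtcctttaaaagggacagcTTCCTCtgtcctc
Cd3d: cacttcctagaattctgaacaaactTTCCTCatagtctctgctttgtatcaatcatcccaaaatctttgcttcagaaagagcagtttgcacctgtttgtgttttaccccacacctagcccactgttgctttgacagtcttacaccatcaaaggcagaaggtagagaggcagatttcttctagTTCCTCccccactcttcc
Lck: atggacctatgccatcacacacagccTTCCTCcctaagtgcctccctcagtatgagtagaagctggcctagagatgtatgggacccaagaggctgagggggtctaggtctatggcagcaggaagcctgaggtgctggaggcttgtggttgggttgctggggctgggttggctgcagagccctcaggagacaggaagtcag
RefSeq promoters were matched for 24 of the 36 members. In the 250 bases before the start, on either strand, GAGGAA occurred in 10 of 14 myeloid and 7 of 10 lymphoid members, against 23.1% of 27025 promoters. The C/EBP pattern TTGCNNAA occurred in 3 of 14 and 1 of 10, against 9.55%. The RUNX letters TGTGGT occurred in 2 of 14 and 1 of 10, against 14.2%, and the EBF letters CCCNNGGG in 2 of 14 and 1 of 10, against 11.7%. No pattern contains another. GAGGAA was thus found in a like share of both lineages, and these matches are letters in a window, not measured binding.

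The myeloid members were far more abundant than the lymphoid members in every group. Summed over the 19 myeloid members, the level was 427 FPKM in the floxed group, 488 with Cdh5Cre and 462 with Sm22Cre. Summed over the 17 lymphoid members, it was 26.0, 47.0 and 30.1 FPKM. The lymphoid sum was thus 6.08% of the myeloid sum in floxed, 9.63% in Cdh5Cre and 6.50% in Sm22Cre. Lyz2 and the 3 C1q genes held the first 4 ranks in each group, and Cd8a and Cd22 were among the lowest. Neighbours in this order cannot be separated, since no spread is known. All 19 myeloid members reached 1 FPKM in every group. Of the lymphoid members, Cd37, Cd52 and Coro1a reached 1 FPKM in every group, 6 reached it in Cdh5Cre alone (Cd3g, Lck, Cd79a, Cd79b, Ptprcap and Ltb), and 8 stayed below it in all groups. No member was left out for a low value, because a 1 FPKM filter would have kept those 6 through the group in which they were highest.

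**Figure D1:**
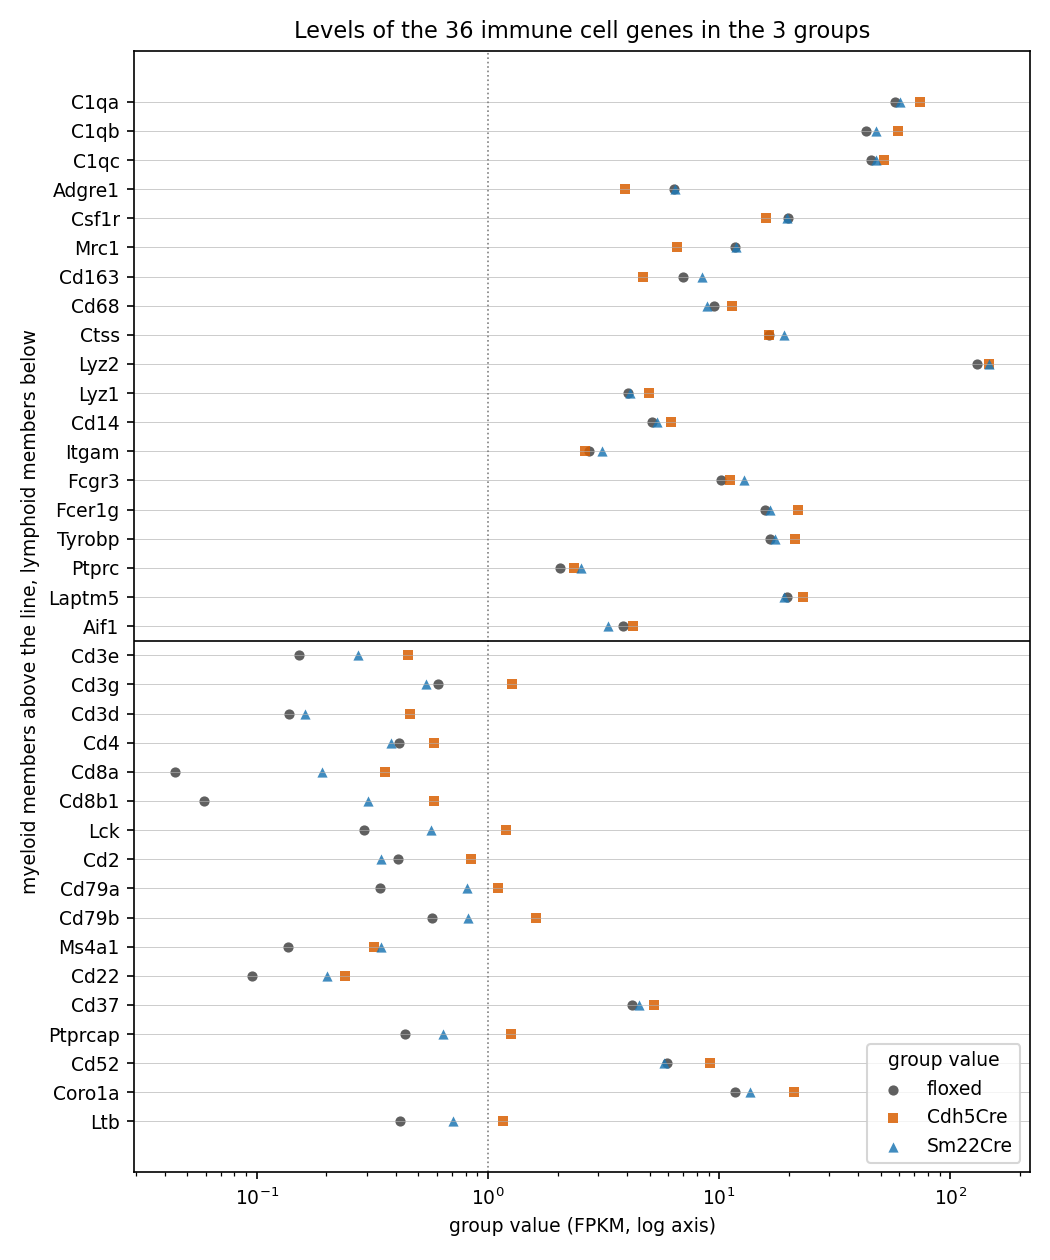
Group values of the 36 members on a log axis of FPKM (circles floxed, squares Cdh5Cre, triangles Sm22Cre; the dotted line marks 1 FPKM). The lymphoid squares lie right of the circles for all 17 genes, while the squares of Adgre1, Csf1r, Mrc1 and Cd163 lie left of them.

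In the Cdh5Cre group, all 17 lymphoid members were higher than in the floxed group, and the myeloid members were divided. Differences are given as log2 ratios of FPKM + 1, which understate the ratio of genes at low levels. Of the 19 myeloid members 13 were higher and 6 lower, against 51.7% higher and 48.2% lower among the 14225 genes with 1 FPKM or more in a group. The median log2 ratio was 0.17 for the myeloid members (range -0.75 to 0.45) and 0.50 for the lymphoid members (range 0.17 to 0.80), a difference of 0.33. The median of those 14225 genes was 0.02. Of the 17 lymphoid members 14 had their highest value between 0.2 and 2 FPKM, and 56.6% of the 5154 genes in that range were higher. No member passed 2-fold in either direction on this scale, against 1.19% of the 14225 genes 2-fold higher and 0.703% 2-fold lower. On plain FPKM ratios 13 lymphoid and 0 myeloid members were at least 2-fold higher, against 7.48% of the 21461 genes above 0 in both groups and 12.5% of the genes between 0.2 and 2 FPKM. The median plain ratio was 2.79 in the lymphoid and 1.14 in the myeloid members. A ratio between group values below 1 FPKM rests on few fragments, and its error is unknown.

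**Figure D2:**
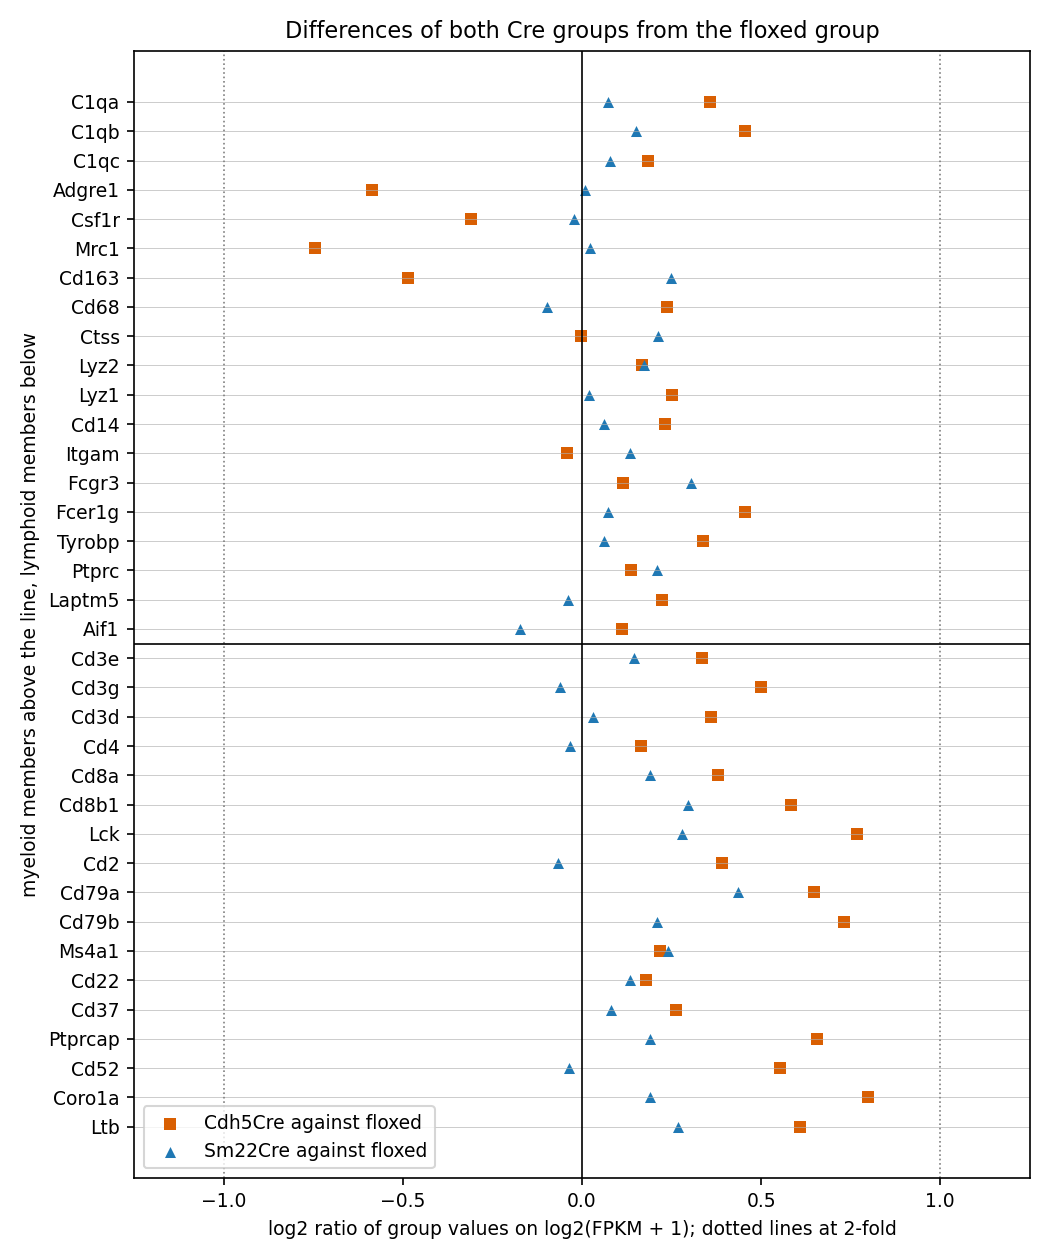
Log2 ratios of the 36 members on log2(FPKM + 1), Cdh5Cre against floxed (squares) and Sm22Cre against floxed (triangles), with dotted lines at 2-fold. All 17 lymphoid squares lie right of 0, the 4 macrophage receptors lie left of it, and no point reaches a dotted line.

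C1q is the recognition unit of the classical complement pathway, assembled from 3 chains that tissue macrophages secrete. The genes of the chains lie side by side on chromosome 4, C1qa from 136451832 to 136454718, C1qb from 136436044 to 136442102 and C1qc from 136445719 to 136448980 (mm9). C1qa was listed at 57.6 FPKM in the floxed group, 74.1 with Cdh5Cre and 60.6 with Sm22Cre. C1qb was listed at 43.1, 59.4 and 47.9 FPKM, and C1qc at 45.3, 51.6 and 47.9. All 3 were highest in Cdh5Cre and lowest in floxed, with log2 ratios in Cdh5Cre of 0.36, 0.45 and 0.18. That direction depended on scaling. With the 3 groups set to equal FPKM sums the log2 ratio of C1qc was -0.10 (C1qa 0.07, C1qb 0.16), and with the relation to transcript length and GC content removed all 3 were negative.

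The macrophage receptors were the myeloid members with the lowest log2 ratios in Cdh5Cre, as reported. Adgre1 (an adhesion receptor that marks mouse macrophages) was listed at 6.39 FPKM in the floxed group, 3.92 with Cdh5Cre and 6.43 with Sm22Cre. Mrc1 (the mannose receptor CD206, an endocytic receptor of resident macrophages) was listed at 11.7, 6.56 and 11.9 FPKM. The Cdh5Cre value of both was the low one, and the floxed and Sm22Cre values lay close together. Cd163, the scavenger receptor for haemoglobin bound to haptoglobin, was listed at 6.96, 4.68 and 8.45 FPKM. Csf1r, the receptor for the growth factor on which macrophages depend, was listed at 19.9, 15.9 and 19.6 FPKM. Its listed locus also holds Hmgxb3, at 6.54, 5.98 and 6.27 FPKM, so fragments of that gene may enter its value. The listed status was FAIL for Cd163 in all 3 comparisons and for Csf1r in both comparisons with Sm22Cre. The log2 ratios of Cdh5Cre against floxed were -0.59 for Adgre1, -0.75 for Mrc1, -0.49 for Cd163 and -0.31 for Csf1r. All 4 were lower under each scaling run, with medians of -0.54 as reported, -0.35 with the length and GC relation removed and -0.77 at equal FPKM sums. As reported, 48.2% of the 14225 genes were lower. At equal FPKM sums only 29.1% of them and 5 of 19 myeloid members were higher, so lower was the common direction. With the length and GC relation removed, 46.1% of the coding genes and 4 of 19 myeloid members were higher. With the length and GC relation removed, other myeloid members lay as low as Csf1r (-0.27) and Cd163 (-0.30), among them C1qc (-0.35), C1qa (-0.29) and Aif1 (-0.26). The 4 receptors have long transcripts, from 3238 bases (Adgre1) to 5374 bases (Mrc1).

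The lysosomal and lysozyme genes differed less. Cd68, a lysosomal membrane protein of macrophages, was listed at 9.54 FPKM in the floxed group, 11.4 with Cdh5Cre and 8.85 with Sm22Cre. Ctss, a lysosomal protease that trims the invariant chain in antigen-presenting cells, was listed at 16.4, 16.4 and 19.2 FPKM. Ctss was thus level between floxed and Cdh5Cre (log2 ratio -0.0024), and Cd68 differed by 0.24. Lyz2 was listed at 130 FPKM in the floxed group, 147 with Cdh5Cre and 147 with Sm22Cre, and its neighbour Lyz1 at 4.03, 4.98 and 4.10. Lyz2 had log2 ratios of 0.17 in both Cre groups. With quantile normalization Lyz2 was at -0.01 in Cdh5Cre. As reported, 3 of these 4 genes were higher in Cdh5Cre, and at equal FPKM sums or with the length and GC relation removed 1 of 4 was.

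The remaining myeloid members cover surface receptors and their signalling adaptors. Cd14, the coreceptor that passes bacterial lipopolysaccharide to Toll-like receptors, was listed at 5.11 FPKM in the floxed group, 6.18 with Cdh5Cre and 5.37 with Sm22Cre. Itgam, the alpha chain of the integrin Mac-1, was listed at 2.75, 2.64 and 3.11 FPKM. These differences were small in both genes. Fcgr3, a receptor for immunoglobulin G, was listed at 10.2, 11.2 and 12.9 FPKM. The adaptors Fcer1g (Fc receptor gamma chain) and Tyrobp (DAP12) couple such receptors to Syk kinase. They were listed at 15.8, 22.0 and 16.6 FPKM and at 16.7, 21.3 and 17.4 FPKM, highest in Cdh5Cre, with log2 ratios of 0.45 and 0.34. With the length and GC relation removed, the log2 ratios were -0.11 for Fcgr3, -0.05 for Fcer1g and -0.24 for Tyrobp. At equal FPKM sums Fcer1g (0.17) and Tyrobp (0.06) stayed above 0 and Fcgr3 did not (-0.15).

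Among the myeloid members, 3 are shared more widely by leukocytes. Ptprc (CD45), the tyrosine phosphatase of all white blood cells, was listed at 2.05 FPKM in the floxed group, 2.36 with Cdh5Cre and 2.53 with Sm22Cre. Laptm5, a lysosomal protein of blood cells, was listed at 19.6, 23.1 and 19.1 FPKM. Aif1 (IBA1), an actin-binding protein of macrophages and microglia, was listed at 3.86, 4.25 and 3.30 FPKM. All 3 had log2 ratios between 0.11 and 0.22 in Cdh5Cre, and all 3 were below 0 at equal FPKM sums. Ptprc has the second longest transcript of the set, 5074 bases, and a log2 ratio of 0.43 with the length and GC relation removed.

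The T cell members were low in level and higher in Cdh5Cre throughout. Summed over the 8 genes, the level was 2.11 FPKM in the floxed group, 5.76 with Cdh5Cre and 2.76 with Sm22Cre. CD3 chains carry the signal of the T cell receptor. Cd3g was listed at 0.607 FPKM in the floxed group, 1.27 with Cdh5Cre and 0.539 with Sm22Cre. Cd3g and Cd3d start 1355 bases apart in opposite directions in RefSeq. Cd3e and Cd3d lay between 0.137 and 0.153 FPKM in floxed, 0.453 and 0.459 in Cdh5Cre and 0.162 and 0.275 in Sm22Cre. Lck, the kinase that phosphorylates the CD3 chains, was listed at 0.291, 1.20 and 0.568 FPKM, with a log2 ratio of 0.77 and a plain ratio of 4.12 in Cdh5Cre. The coreceptors Cd4, Cd8a and Cd8b1 and the adhesion receptor Cd2 stayed below 1 FPKM, between 0.0443 and 0.413 FPKM in floxed, 0.358 and 0.844 in Cdh5Cre and 0.191 and 0.382 in Sm22Cre. Cd8a and Cd8b1, singled out after their values were seen, encode the chains of the coreceptor of cytotoxic T cells and had the largest plain ratios of all 36 members, 8.10 and 9.92. Their floxed values were 0.0443 and 0.0592 FPKM, the lowest of the set.

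The B cell members were higher in both Cre groups than in floxed. CD79 chains carry the signal of the B cell receptor. Cd79a was listed at 0.342 FPKM in the floxed group, 1.10 with Cdh5Cre and 0.814 with Sm22Cre, and Cd79b at 0.573, 1.61 and 0.819. Their log2 ratios were 0.65 and 0.73 in Cdh5Cre and 0.43 and 0.21 in Sm22Cre. Ms4a1 (CD20) and Cd22, an inhibitory coreceptor, lay at 0.137 and 0.0956 FPKM in floxed, 0.322 and 0.241 in Cdh5Cre and 0.344 and 0.202 in Sm22Cre. Ms4a1 was the 1 lymphoid member whose highest value was in Sm22Cre. Cd37, a tetraspanin of B cells that other leukocytes also carry, was listed at 4.19, 5.22 and 4.49 FPKM. Its listed locus also holds Tead2, at 9.30, 12.1 and 9.82 FPKM, so fragments of that gene may enter its value. Cd37 made up most of the B cell sum, which was 5.34, 8.50 and 6.67 FPKM with it and 1.15, 3.28 and 2.18 FPKM without it.

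The lymphoid members shared by several leukocyte types included the most abundant of the 17, Coro1a and Cd52. Coro1a (ENSMUSG00000030707), an actin regulator of white blood cells, was listed at 11.8 FPKM in the floxed group, 21.2 with Cdh5Cre and 13.5 with Sm22Cre, with a log2 ratio of 0.80 in Cdh5Cre, the largest of the set as reported. With the length and GC relation removed (0.65 against 0.37) and at equal FPKM sums (0.61 against 0.52), Lck lay above Coro1a. Cd52, a small glycoprotein on the surface of lymphocytes and some myeloid cells, was listed at 5.93, 9.17 and 5.77 FPKM, with a log2 ratio of 0.55. Both are read at levels like those of the myeloid members. With the length and GC relation removed, the log2 ratio of Cd52 was 0.06. Ptprcap, a protein bound to CD45, was listed at 0.436, 1.26 and 0.638 FPKM. Its listed locus also holds Rps6kb2, at 15.8, 29.5 and 17.6 FPKM, so its value may hold fragments of that gene. Ltb, lymphotoxin beta, a cytokine that organises lymphoid tissue, was listed at 0.417, 1.16 and 0.704 FPKM.

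In the Sm22Cre group the differences from floxed were smaller in both lineages. Of the myeloid members 15 of 19 were higher, and of the lymphoid members 13 of 17, against 52.0% of the 14225 genes (and 47.9% lower) and 53.7% of the genes between 0.2 and 2 FPKM. The median log2 ratio was 0.07 for the myeloid and 0.19 for the lymphoid members, and 0.01 for all these genes. No member passed 2-fold on log2(FPKM + 1), against 0.302% higher and 0.33% lower. On plain ratios 5 lymphoid members (Cd8a, Cd8b1, Cd79a, Ms4a1 and Cd22) and 0 myeloid members were at least 2-fold higher, against 3.84% of the genes above 0 in both groups and 4.98% of those between 0.2 and 2 FPKM. Of these 5 only Cd79a exceeded 0.4 FPKM in Sm22Cre. The macrophage receptors, lower in Cdh5Cre, were near the floxed value here, with log2 ratios from -0.02 (Csf1r) to 0.25 (Cd163). Cd3g, Cd4, Cd2 and Cd52 were the lymphoid members below floxed, by at most 0.07 on the log2 scale.

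Set directly against Cdh5Cre, the Sm22Cre group was lower for 16 of 17 lymphoid and 10 of 19 myeloid members, against 50.7% of the 14225 genes and 54.1% of those between 0.2 and 2 FPKM. The median log2 ratio was -0.33 for the lymphoid and -0.10 for the myeloid members. The myeloid median was above 0 with the length and GC relation removed (0.23) and at equal FPKM sums (0.17). Coro1a (-0.61), Cd52 (-0.59) and Cd3g (-0.56) had the largest negative log2 ratios, while Mrc1 (0.77), Cd163 (0.73) and Adgre1 (0.60) had the largest positive ones. No member passed 2-fold on this scale, against 0.401% higher and 1.23% lower. The 3 comparisons share groups, so they are not independent of each other. By group, Cdh5Cre held the highest value for 16 of 17 lymphoid members, and floxed the lowest for 13. For 12 of 17 the Sm22Cre value lay between, above floxed and below Cdh5Cre, as for 7 of 19 myeloid members. No share over all genes is given for these orders, so how common they are is not known. Among the 19 myeloid members the highest value was in Cdh5Cre for 10, in Sm22Cre for 8 and in floxed for 1.

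The Cdh5Cre difference was related to transcript length. Across all 12317 protein-coding genes with 1 FPKM or more in a group, Spearman's rho between log2 ratio and the length of the longest coding transcript was -0.58, and for GC content it was 0.53. These describe genes of the same libraries and carry no test. Within the myeloid members rho with length was -0.76 (n = 19), and within the lymphoid members -0.49 (n = 17). In Sm22Cre against floxed the values were -0.24 over all coding genes, 0.11 and 0.16. Both lineages are of like length, with a median of 1347 bases (597 to 5374) in the myeloid and 1483 bases (514 to 3974) in the lymphoid members. Length and GC content accounted for 45.9% of the variance of the plain log2 ratios in Cdh5Cre and 4.15% in Sm22Cre. With that relation removed, the median log2 ratio of Cdh5Cre against floxed was -0.14 in the myeloid members and 0.30 in the lymphoid members. All 17 lymphoid members stayed above 0 then, against 46.1% of the coding genes, and 4 of 19 myeloid members did. Cd37 and Cd52 came closest to 0, at 0.04 and 0.06. What produced the relation to length was not tested.

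**Figure D3:**
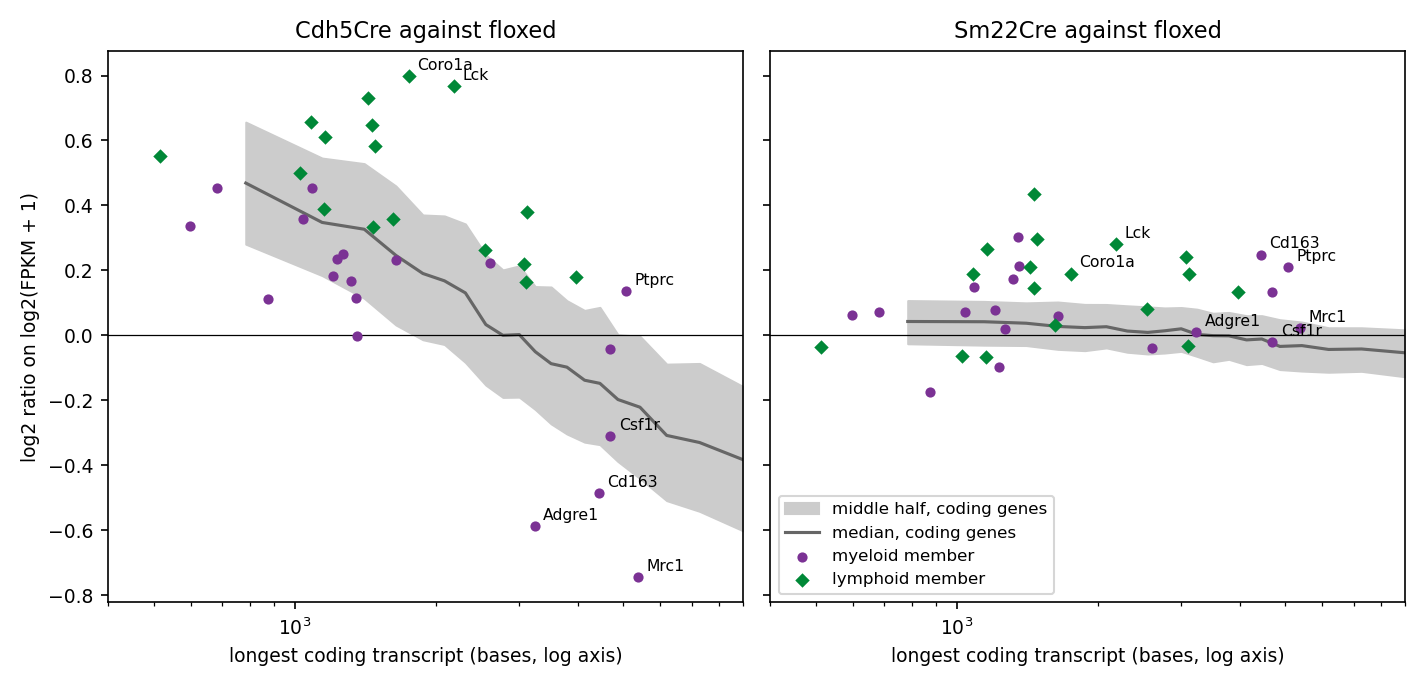
Log2 ratio on log2(FPKM + 1) against the length of the longest coding transcript (log axis), for Cdh5Cre (left) and Sm22Cre (right) against floxed; the line and grey band are the median and interquartile range of coding genes in bins of length. On the left the band falls with length, and most lymphoid diamonds lie on or above the line. Mrc1, Adgre1 and Cd163 lie below the band, and so do Aif1 and Ctss, which are not labelled.

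The sum of all FPKM values was also higher in Cdh5Cre, 607860 against 495724 in floxed and 500015 in Sm22Cre. Setting the groups to equal sums moved the median log2 ratio of the 14225 genes from 0.02 to -0.23 in Cdh5Cre against floxed, a scaling chosen after the values were seen. The myeloid median then was -0.10 and the lymphoid median 0.31, both above the median of those 14225 genes. The median was -0.05 for the 24506 genes above 0 in a group, and the myeloid median lay below that. For genes between 0.2 and 2 FPKM it was -0.04. All 17 lymphoid members were still higher in Cdh5Cre, against 29.1% of the 14225 genes, and 5 of 19 myeloid members were. That 29.1% is a low background for the 14 lymphoid members with highest values between 0.2 and 2 FPKM. The share higher in that range at equal sums is not given. The direction of the myeloid members as a group thus depended on scaling, and that of the lymphoid members did not in any scaling run. The lymphoid median exceeded the myeloid median by 0.20 to 0.94 over all settings.

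**Figure D4:**
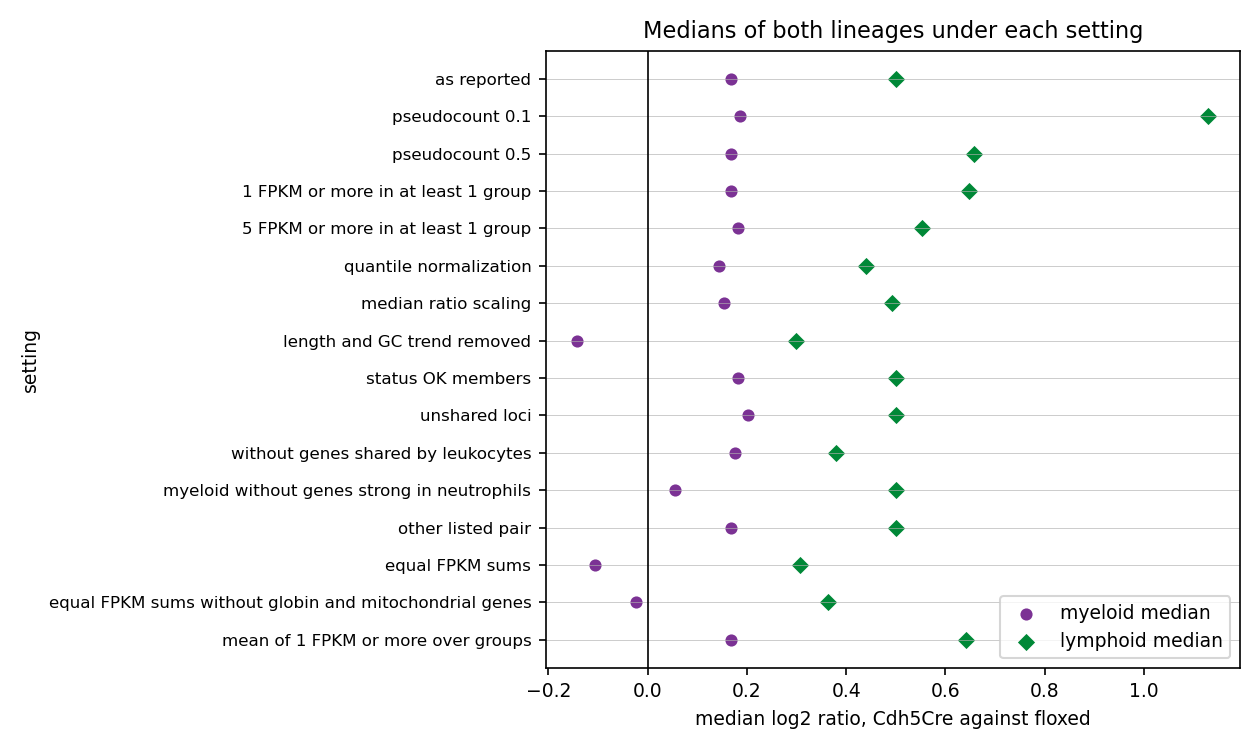
Median log2 ratio of Cdh5Cre against floxed for the myeloid (circles) and lymphoid (diamonds) members, as reported and under 15 other settings. The diamonds lie right of the circles in each line, and the circles lie left of 0 in 3 lines, with the length and GC relation removed and at equal FPKM sums with and without globin and mitochondrial genes.

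Markers of circulating blood were higher in the same group as the lymphoid members. Of the 14225 genes, 51.7% were higher in Cdh5Cre (29.1% at equal FPKM sums) and 1.19% were past 2-fold higher. Of the genes between 0.2 and 2 FPKM, 56.6% were higher and 0.369% were past 2-fold higher. Most of the neutrophil genes below stayed under 1 FPKM, so 29.1% is a low background for them. The share of low genes higher at equal sums is not given. Summed over 6 red cell genes the level was 4020 FPKM in the floxed group, 25453 with Cdh5Cre and 9029 with Sm22Cre, and all 6 were higher in Cdh5Cre, 5 of them past 2-fold. Summed over 9 platelet genes it was 49.6, 281 and 92.9 FPKM, with 9 of 9 higher and 8 past 2-fold. Summed over 15 neutrophil genes it was 9.37, 53.6 and 18.7 FPKM, with 15 of 15 higher (14 at equal FPKM sums) and 5 past 2-fold. The sum of each of these blood lists was highest in Cdh5Cre and intermediate in Sm22Cre. That order also held for 12 of the 17 lymphoid and 7 of the 19 myeloid members, with no share over all genes given. Outside blood, the endothelial sum (365, 571 and 410 FPKM in floxed, Cdh5Cre and Sm22Cre) had the same order. So did the dendritic cell sum (41.1, 63.2 and 45.2 FPKM) and the adipocyte sum (498, 570 and 520 FPKM). The fibroblast, smooth muscle, heart muscle, mast cell and other macrophage sums did not. S100a8 and S100a9, the calprotectin subunits of neutrophils, had log2 ratios of 3.15 and 3.11. The largest log2 ratios of the other blood lists were those of Ppbp (3.93) and Clec1b (2.64) in platelets and of the alpha globins Hba-a2 (2.78) and Hba-a1 (2.71) in red cells. The neutrophil markers Ly6g, Mpo and Elane were listed at 0 in floxed and at no more than 0.324 FPKM in Cdh5Cre. The part of blood in the lymphoid difference was not tested. The ratio of the Cdh5Cre to the floxed sum was 6.33 for red cells, 5.65 for platelets and 5.72 for neutrophils, against 1.81 for the lymphoid and 1.14 for the myeloid members. Single abundant genes carry some of these sums. Without S100a8 and S100a9 the neutrophil ratio was 2.30 over 13 genes. Without Coro1a, Cd52 and Cd37 the lymphoid ratio was 2.79 over 14 genes, with 2.73 for the T cell members and 2.86 for the B cell members other than Cd37. These parts were chosen after the values were seen.

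**Figure D5:**
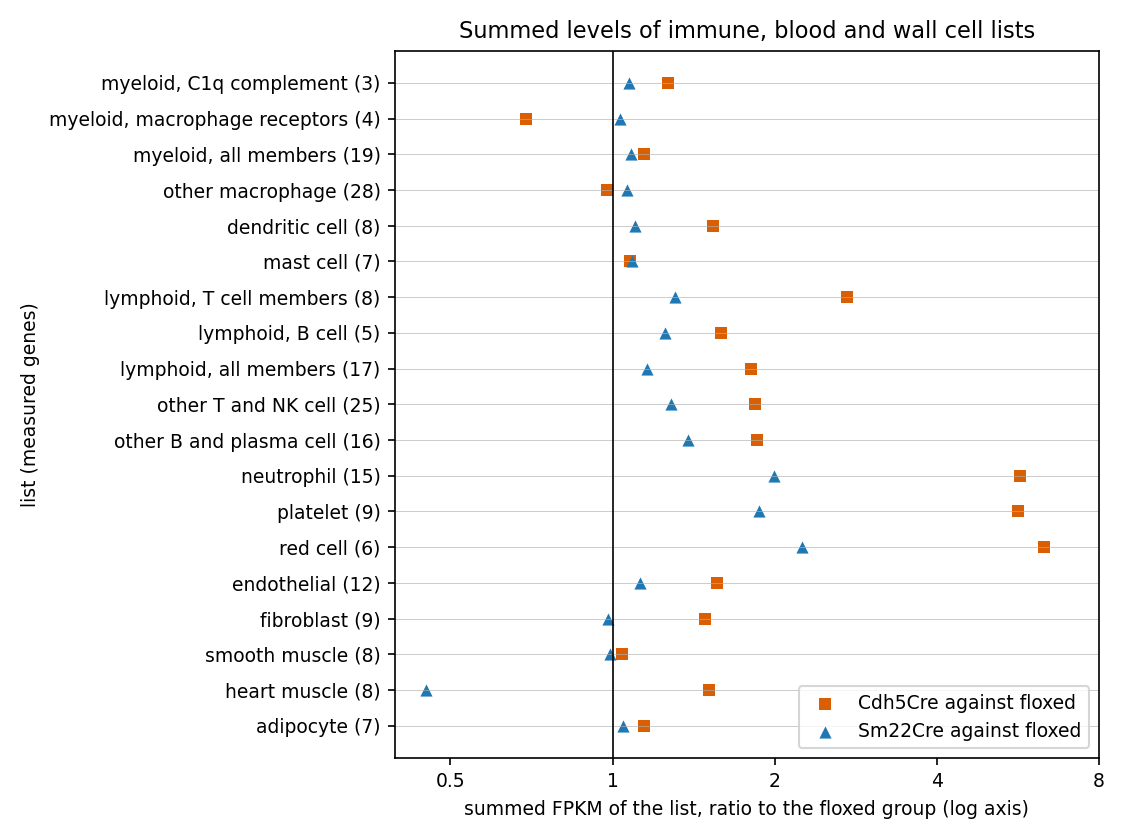
Summed FPKM of each list as a ratio to the floxed group (log axis; squares Cdh5Cre, triangles Sm22Cre; the number of measured genes in brackets). The red cell, platelet and neutrophil squares lie between 5.65 and 6.33, the lymphoid square at 1.81 and the myeloid square at 1.14.

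Other genes of the same lineages, outside the 36, were read from separate lists, to be set against the 51.7% of the 14225 genes and 56.6% of the genes between 0.2 and 2 FPKM that were higher in Cdh5Cre. Of 28 other macrophage genes 15 were higher, near that background, with a median log2 ratio of 0.04 and sums of 233 FPKM in the floxed group, 228 with Cdh5Cre and 248 with Sm22Cre. That list also holds Csf1 (45.5, 50.0 and 46.6 FPKM) and Il34 (1.79, 2.29 and 1.28 FPKM), which are among the 15. They encode the ligands of Csf1r and are not markers of macrophages. Cd84, a receptor of the SLAM family, was highest at 0.78, and Maf, a transcription factor of resident macrophages, lowest at -0.60. Itgb2, the partner chain of Itgam, was at 0.52 and Msr1, a scavenger receptor, at -0.55. Of 25 other T and NK cell genes 20 were higher, with a median of 0.17 and sums of 9.33, 17.2 and 12.0 FPKM. The constant regions of the T cell receptor beta chain, Trbc2 and Trbc1, passed 2-fold (1.47 and 1.12). Trbc2 was listed at 0.499 FPKM in the floxed group, 3.16 with Cdh5Cre and 1.37 with Sm22Cre. Both Trbc genes are near-identical copies, so fragments may be divided between them. The adaptor Lat (0.90) and the transcription factor Tcf7 (0.72) followed. Of 16 other B and plasma cell genes 13 were higher, with a median of 0.15 and sums of 17.9, 33.2 and 24.7 FPKM. Igkc, the constant region of the kappa light chain, passed 2-fold (1.18) at 5.48, 13.7 and 10.1 FPKM, and Ighm, the mu heavy chain, was at 0.60. Fcrla and Pax5 were at 0.34 and 0.33. At equal FPKM sums 9 of the 28 macrophage, 16 of the 25 T and NK cell and 12 of the 16 B and plasma cell genes were higher. The share was 29.1% of the 14225 genes, which is a low background for the T, NK and B cell genes. Most of these lay below 1 FPKM, and for genes between 0.2 and 2 FPKM this scaling moved the median only from 0.04 to -0.04. The share higher in that range at equal sums is not given.

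Lists of other cells of the dissected tissue are to be set against the 51.7% of the 14225 genes that were higher in Cdh5Cre. At equal FPKM sums that share was 29.1%. In Cdh5Cre 12 of 12 endothelial and 8 of 9 fibroblast genes were higher (9 and 6 at equal FPKM sums), with summed levels 1.57 and 1.49 times those of floxed. Cldn5 and Sox18 (both 1.24) led the endothelial list and Clec3b (1.28) and Pi16 (1.20) the fibroblast list in log2 ratio. Summed over 8 heart muscle genes, the level was 877 FPKM in the floxed group, 1326 with Cdh5Cre and 395 with Sm22Cre. In Cdh5Cre 7 of the 8 were higher, led by Tnni3 (0.73) and Tnnt2 (0.70). In Sm22Cre all 8 were lower, 5 of them past 2-fold, against 47.9% and 0.33% of the 14225 genes. Whether the dissected segment bears on the immune cell values was not tested. Of 8 smooth muscle genes 3 were higher, and the summed level was 7220 FPKM in the floxed group, 7533 with Cdh5Cre and 7133 with Sm22Cre, so smooth muscle markers were abundant in every group. Des (0.66) and Cnn1 (0.51) had the largest log2 ratios there. Of 7 mast cell genes 3 were higher (Hdc 0.48, Kit -0.36), of 8 dendritic cell genes 5 (Bst2 0.74, Irf8 0.44) and of 7 adipocyte genes 5 (Lep -0.31, Cidea 0.27), each value being a log2 ratio of Cdh5Cre against floxed. At equal FPKM sums 7 of 8 heart muscle, 2 of 8 smooth muscle, 2 of 7 mast cell, 3 of 8 dendritic cell and 0 of 7 adipocyte genes were higher. Agtr1a, the floxed gene, was listed at 1.75 FPKM in the floxed group, 1.32 with Cdh5Cre and 1.21 with Sm22Cre. The labels do not name the exon removed, and loss in 1 cell type of a whole aorta leaves the transcripts of the others.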

How the data were processed

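RNA from frozen aorta (RNA integrity number above 8, 1 µg, poly-A selected, stranded kit, paired reads of 75 bases from fragments near 300 bp) was sequenced, per the labels' protocols. The submitters' processing notes name TopHat2 2.0.8, Bowtie2 2.1.0, SAMtools 0.1.7, Cufflinks 1.3.0 and the build mm9, with no role or option. The gene annotation and the use of strand in counting are not given in the sources used here. The deposited table holds, per the file headers, the authors' FPKM of each group for 37668 genes and 3 pairs of groups (113004 lines). It gives 1 value for each group of 3 mice, so no depth, SD, p-value or interval was available, and FPKM of this kind keep no depth.

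Symbols, transcript length and GC content came from GENCODE M21, which matched 32638 of 37668 identifiers. Genes of status HIDATA (7) were left out, and no member was among them. In Cdh5Cre against floxed the status was OK for 17 myeloid and 13 lymphoid members. The others were kept, namely Cd163, Itgam, Ptprcap and Ltb (FAIL) and Ms4a1 and Cd22 (NOTEST). Each difference is a log2 ratio with a pseudocount of 1 FPKM, and a gene was counted as past 2-fold on that scale. The members, lists and rules were chosen with earlier results of these data known. Text names every member of 1 FPKM or more with its values, other members by their range, and of each other list the 2 genes with the largest size of log2 ratio in Cdh5Cre against floxed (4 in the 3 lists of macrophage, T and B cell genes). The plan had a 1 FPKM filter as the usual choice. All members are reported instead, and the filter is an alternative. The length and GC relation was fitted by quadratic splines with 5 knots on plain log2 ratios of 11776 coding genes of 1 FPKM or more in every group, and was tested on simulated data with 200 changed genes. The 0.2 to 2 FPKM background and 3 alternatives were added after seeing the data. Promoters came from RefSeq (GRCm38.p6), and amino acid sequences were not used here. Python 3.11.15, numpy 2.4.6, pandas 2.3.3, scipy 1.17.1, Biopython 1.88 and matplotlib 3.10.9 were used.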

Additional observations from a re-analysis of the deposited data

How the results depend on the processing

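For 15 results, 12 planned and 3 added alternatives were run. Of the values, 153 planned and 35 added moved by less than 0.1 on the log2 scale or by at most 1.5 times, without reversing. Larger moves were seen in 24 planned and 6 added values, and reversals in 3 and 4. The unmoved values include counts past 2-fold that stayed at 0 and have no direction. Reading the groups from the other listed pairs could change nothing, since 0 members differed between pairs. All 17 lymphoid members were higher in Cdh5Cre than in floxed in every setting that kept all of them. Some of these settings could not have changed that count. Another pseudocount cannot turn the sign of a ratio, and leaving out myeloid genes does not touch the lymphoid members. Only the scalings and the removal of the length and GC relation could have changed it. The filters are no support for the count either, since 6 of the 9 lymphoid members that passed 1 FPKM, and Cd37 at 5 FPKM, passed through Cdh5Cre alone. No paired analysis was possible because the table holds 1 value per group and the mice of the groups share no replicate numbers, and leaving out single mice could not be run for the same reason. The cause of the following shifts was not tested, beyond the smaller number of genes where a filter was applied.

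For Cdh5Cre against floxed, a pseudocount of 0.1 FPKM gave a lymphoid median of 1.13 and a lymphoid minus myeloid difference of 0.94. It put 9 of the 36 members past 2-fold higher. The background share was 3.66% of genes above 0 in a group and 9.53% of those between 0.2 and 2 FPKM. A pseudocount of 0.5 gave 1 such member, with no background share given. With the length and GC relation removed the myeloid median was -0.14 and the lymphoid 0.30. At equal FPKM sums they were -0.10 and 0.31, and at equal sums without globin and mitochondrial genes the myeloid median was -0.0234. Without genes shared by leukocytes the difference was 0.20, and without myeloid genes strong in neutrophils the myeloid median was 0.0547.

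For Sm22Cre against floxed, a pseudocount of 0.1 gave a lymphoid median of 0.46 and a difference of 0.39. It put 3 of the 36 members past 2-fold higher. The background share was 1.78% of genes above 0 in a group and 4.89% of those between 0.2 and 2 FPKM. A filter of 5 FPKM in at least 1 group left 3 lymphoid members, with a median of 0.0805 and a difference of 0.0090.

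For Sm22Cre against Cdh5Cre, the myeloid median was 0.23 with the length and GC relation removed, 0.0557 without genes strong in neutrophils, 0.17 at equal FPKM sums, 0.0947 at equal sums without globin and mitochondrial genes and -0.0009 with quantile normalization. The lymphoid median was -0.66 with a pseudocount of 0.1, -0.59 with the 5 FPKM filter, -0.55 for genes with a mean of 1 FPKM or more, -0.18 with the length and GC relation removed, -0.20 at equal sums and -0.21 without genes shared by leukocytes. The difference was -0.55 and -0.36 with pseudocounts of 0.1 and 0.5, -0.38 and -0.48 with filters of 1 and 5 FPKM, -0.45 for genes with a mean of 1 FPKM or more, -0.41 with the length and GC relation removed, -0.37 at equal sums and -0.38 without genes strong in neutrophils. A pseudocount of 0.1 gave 3 of the 36 members past 2-fold lower. That is near the 8.32% of genes between 0.2 and 2 FPKM (3.47% of genes above 0 in a group). Equal sums gave 1 past 2-fold higher, with no background share given.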
